A study of Mus musculus with 148 samples.

Results

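DNA modification along the *Lct*–*Mcm6* locus was compared between P60 mice and P90 mice given lactose-free milk, separately in segments 1 (labelled proximal duodenum) and 4 (labelled proximal jejunum) of the small intestine, which had been cut into consecutive segments. Samples were taken by the age, milk and segment in their labels. Of the 148 samples of the series, 29 entered, namely 8 P60 and 6 P90 lactose-free samples of segment 1, and 8 P60 and 7 P90 lactose-free samples of segment 4. All mice were of one strain, written C57BL/6MCrl in the sample labels and C57BL/6NCrl in the growth protocol. The P60 mice (postnatal day 60) had standard food and water. The P90 mice (postnatal day 90) had lactose-free milk in place of water for 60 days from day 30. Age and milk therefore changed together and cannot be told apart here. The cells are labelled enterocytes isolated by chelation, a label that DNA modification alone does not check. Neither the labels nor the methods tie samples to animals, so p-values measure the spread between these samples. Each P60 segment had more samples than the mice per segment that the design text states. Some P60 samples may thus share a mouse, and p-values may be too small.

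Lactase, encoded by *Lct*, splits milk sugar at the brush border of enterocytes and declines after weaning in most mammals. *Mcm6*, the neighbouring gene, encodes a subunit of the replicative helicase, and its introns hold an enhancer region that bears on lactase persistence in humans. Methylation of the cytosine in a CpG dinucleotide is the main DNA modification of mammalian cells and is low at many active regulatory elements. Bisulfite sequencing reads 5-methylcytosine and 5-hydroxymethylcytosine alike, hence the word modification.

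DNA was bisulfite-converted, captured with padlock probes, which close into circles after copying the stretch between their arms, and sequenced. For each cytosine on each strand the deposited files give the reads that called it modified and unmodified. A value is the percentage of modified reads at a cytosine with more than 30 reads. Over the whole locus these counts added up to 17691697 to 23568342 in P60 and 55490238 to 101149164 in P90 samples of segment 1, and 17098200 to 46566834 and 27236687 to 58585298 in segment 4. The median CpG was read 1086 to 1547 and 3789 to 6948 times in segment 1, and 1093 to 3234 and 1835 to 4293 times in segment 4. Depth thus moved with age, and beyond other read minimums its part in the differences was not tested. Probe copies without molecular identifiers are not independent molecules.

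The P90 samples were of 2 kinds. In segment 1, 4 files were marked as merged and came from lane 3, and 2 unmerged files came from lane 5. In segment 4, 5 merged files came from lane 3 and 2 unmerged files from lane 5. Depth in segment 4 also moved with this kind. There the merged files had 54562470 to 58585298 locus counts and the unmerged ones 27236687 and 27797487. In segment 1 the unmerged files, with 63357782 and 65314075, lay within the range of the merged ones. Every P60 file was unmerged and came from lanes 4 to 7, with 2 samples per segment on lane 5. What the merging joined is not given in the sources used here. The 2 unmerged P90 files of each segment carried the same codes, 13 and 14, in both segments, and whether those samples share animals is not given. Merging and lane coincide within the P90 samples of segments 1 and 4, so each difference below is given for all P90 samples and for each kind. In other segments of the series they do not always coincide, and those samples were not compared here.

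The locus table held 1102 CpG cytosines between positions 128275665 and 128364310 of chromosome 1 (GRCm38). *Lct* (128284756–128328318) and *Mcm6* (128331590–128359664) are both transcribed from the minus strand. *Lct* starts at the higher coordinate, so the *Mcm6* 3′ end lies upstream of *Lct*. Along the locus, 11 regions were defined as clusters of at least 3 CpGs, each within 500 bp of the next, that differed among P60 segments 2, 3 and 5 to 9 (63 CpGs in all). No value of the 29 samples was used to define them. All 304 probes of the locus could be placed on the converted sequence by both arms. Of the 665 CpGs tested in segment 1, 20 lay only in a probe arm, and 1 of the 63 region CpGs did.

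The stretches in which the largest rises and falls described below lay are printed on the minus strand, 5′ to 3′, from GRCm38, with the CpGs of the region in capitals. The *Mcm6* exon 13–intron 13 stretch (chr1:128338088-128338200) is the densest part of the region, with 7 of its 10 CpG sites. Exon 13 (128338116–128338277) ends within it. The *Mcm6* intron 3 (chr1:128353166-128353313) and *Lct* exon 12 (chr1:128293673-128293744) stretches hold whole regions of 3 CpG sites each. The *Lct* intron 9 stretch (chr1:128295922-128295973) shows the CpG with the lowest p of its region. The last one is the 60 bases before the *Lct* start (chr1:128328319-128328378), shown for its single CpG.
Mcm6 exon 13 and intron 13: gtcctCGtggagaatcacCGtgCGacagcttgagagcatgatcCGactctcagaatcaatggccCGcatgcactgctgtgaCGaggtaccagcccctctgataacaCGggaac
Mcm6 intron 3: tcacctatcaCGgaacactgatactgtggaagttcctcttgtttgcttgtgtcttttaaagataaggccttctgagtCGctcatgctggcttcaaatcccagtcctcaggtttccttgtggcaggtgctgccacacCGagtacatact
Lct exon 12: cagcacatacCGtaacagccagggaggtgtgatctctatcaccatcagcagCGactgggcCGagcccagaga
Lct intron 9: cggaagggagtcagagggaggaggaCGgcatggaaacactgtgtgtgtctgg
Lct promoter: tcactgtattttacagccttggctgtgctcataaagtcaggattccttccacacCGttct

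The mean modification of all CpGs of the locus did not separate the ages beyond the spread between samples. In segment 1 the locus mean was 76.4% at P60 and 76.2% at P90 (difference −0.20 points, exact two-sided permutation test, p = 0.699, n = 8 and 6). In segment 4 it was 77.2% and 77.3% (0.0951 points, exact permutation p = 0.78, n = 8 and 7). The kinds of P90 file differed in sign, with changes of 0.457 and 0.573 points in merged and −1.5 and −1.1 points in unmerged samples of segments 1 and 4.

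Single CpGs were tested with a quasi-binomial model across 21563 cytosines in segment 1 and 21479 in segment 4. At a Bonferroni-adjusted p under 0.01, 0 of 665 locus CpGs passed in segment 1 (0% of the 665 and 0.00464% of all cytosines). At an unadjusted p under 0.05, 32.2% of them passed, against 24.2% of other-target CpGs and 17.8% of all cytosines. A fit with limma on log2 odds also called 0 locus CpGs. In segment 4, 1 of 668 locus CpGs passed (0.15%, against 0.0326% of all cytosines), and limma called 0. The call is the CpG at 128293692 on the plus strand, in exon 12 of *Lct*, the second capital pair from the 5′ end of the printed *Lct* exon 12 stretch. Its level ran from 79.2% to 81.8% at P60 and from 74% to 76.9% at P90, without overlap, with means of 80.4% ± 0.773 and 75.3% ± 1.05 (SD, n = 8 and 7). In the quasi-binomial model its Bonferroni-adjusted p was 0.000707. Merged and unmerged P90 samples averaged 75.2% and 75.6% at this CpG.

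With Benjamini-Hochberg adjustment at 0.05 over the same cytosines, 39 locus CpGs differed in segment 1 (5.86%, against 2.63% of other-target CpGs and 2.06% of all cytosines). Of these, 37 were lower at P90 (5.56%, against 2.06% of other-target CpGs and 0.278% of all cytosines) and 2 higher (0.301%, against 0.571% and 1.79%). In segment 4, 31.6% of locus CpGs differed, against 28.9% of CpGs at the other autosomal targets and 10% of all cytosines. There, 162 were lower (24.3%, against 23.4% and 1.91%) and 49 higher (7.34%, against 5.49% and 8.11%). The share in segment 4 was thus near that of the other targets, which include imprinted regions. Of the *Lct* CpGs, 18 of 356 were lower and 0 higher in segment 1, and 102 of 359 were lower and 16 higher in segment 4. In *Mcm6*, 12 CpGs were lower and 2 higher in segment 1, and 32 were lower and 27 higher in segment 4.

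With merged P90 samples only, the count in segment 1 was 71 (32 higher, 39 lower, 10.7%), against 12.6% of other-target CpGs and 3.32% of all cytosines. With unmerged samples only it was 26 (0 higher, 26 lower, 3.92%), against 1.61% and 1.09%. For segment 4 the merged samples gave 37.9% (84 higher, 169 lower), against 33.6% and 11%. The 2 unmerged samples gave 0 calls, against 0.116% and 0.153%, and 507 of 658 CpGs had lower means than at P60. At the Bonferroni threshold merged samples gave 0 locus CpGs in segment 1 (0% of other-target CpGs, 0.0233% of all cytosines) and 33 in segment 4 (17 higher, 16 lower, against 4% and 0.383%). Unmerged samples gave 0 in each segment (0.23% and 0% of other-target CpGs, 0.17% and 0.0525% of all cytosines). With all P90 samples of segment 1, the Benjamini-Hochberg count was between 16 and 46 when single samples were left out, the lowest without P60 replicate 2 or 7.

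CpGs over 90% modified, grouped by their level in the P60 segments that were not compared, fell in both segments. Their mean fell from 93% ± 0.259 (SD, n = 8; range 92.7% to 93.4%) to 91.9% ± 0.279 (n = 6; 91.6% to 92.4%) in segment 1. In segment 4 it fell from 93.7% ± 0.206 (n = 8; 93.5% to 94.1%) to 92.4% ± 0.348 (n = 7; 92% to 92.8%). All 6 P90 samples of segment 1 and all 7 of segment 4 lay below every P60 sample (exact permutation p = 0.000333 and 0.000155, the smallest these group sizes allow, adjusted p = 0.00178 and 0.00124 over 16 level classes). The change was −1 point in merged and −1.25 points in unmerged samples of segment 1, and −1.5 and −1.03 points in segment 4. Of the single CpGs of this class, 89.7% were lower at P90 in segment 1 (348 CpGs) and 90.8% in segment 4 (349 CpGs). Benjamini-Hochberg calls were 34 lower and 0 higher in segment 1, and 110 lower and 0 higher in segment 4, against 5.56% and 24.3% of all locus CpGs called lower. CpGs over 90% at the other targets were lower in 98.1% and 94.3% of cases, with 6 and 34 of 53 called lower. Over all P90 samples the fall was thus not particular to the locus. At the other targets the change was −4.18 and −5.81 points in merged samples of segments 1 and 4. In unmerged samples it was −0.602 and −0.309 points.

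The CpGs with the lowest p outside the *Lct* exon 12 call also had lower means at P90 and did not pass the Bonferroni threshold. In segment 1 the lowest were at 128275784 in *Ubxn4* (96.1% to 94.8%, minus strand), 128298136 in *Lct* intron 9 (86.5% to 83.4%), 128334717 in *Mcm6* intron 15 (96.5% to 95.3%), 128293466 in *Lct* intron 12 (95.1% to 93.7%) and 128285415 in *Lct* intron 16 (91.2% to 87.5%). Their quasi-binomial Bonferroni p ran from 0.0491 to 1 and their Benjamini-Hochberg p from 0.00786 to 0.0129. In segment 4 they were at 128334719 in *Mcm6* intron 15 (96.5% to 94.6%), 128301125 in *Lct* exon 8 (95.9% to 94.1%), 128363509 between *Mcm6* and *Dars* (93.2% to 91.6%) and 128311311 in *Lct* intron 4 (95.5% to 93.9%). The *Mcm6* intron 15 positions of the 2 segments, 128334717 and 128334719, are neighbouring CpGs on the minus strand.

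Among the 11 regions, 3 passed a Benjamini-Hochberg adjusted p of 0.05 in segment 1 (1 higher, 2 lower at P90) and 7 in segment 4 (4 higher, 3 lower), over 22 tests. The regions that fell were in *Lct* or downstream of it. Those that rose lay in *Mcm6* and in *Lct* intron 3–exon 4. With merged samples only, 6 regions passed in segment 1 (5 higher, 1 lower) and 11 in segment 4 (8 higher, 3 lower). With unmerged samples only, 0 passed in either segment, where the smallest possible unadjusted p was 0.0222 by exact permutation.

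*Lct* intron 9–exon 10 (128295160–128295948, 4 CpGs) was lower at P90 in both segments. The P60 samples of segment 1 had 86.1% to 87.9% (median 86.9%), and the P90 samples had 84.3%, 84.6%, 83.1% and 85.5% (merged) and 84.4% and 83.7% (unmerged). No P90 sample reached the P60 range, and the mean fell by 2.66 points (exact permutation p = 0.000333, adjusted p = 0.00244). In segment 4 the P60 samples had 88.4% to 89.9% (median 89.3%), the merged P90 samples 85.2%, 85%, 85%, 84.6% and 86.8%, and the unmerged ones 87.1% and 86.9%. The groups again did not overlap, and the mean fell by 3.46 points (exact permutation p = 0.000155, adjusted p = 0.00171). The changes were −2.55 and −3.93 points in merged and −2.88 and −2.27 points in unmerged samples of segments 1 and 4. All 4 CpGs were lower in both segments, as were 71.9% and 71.1% of all locus CpGs. The region's CpG at 128295948, printed above, had the largest change (84.1% to 77.5% and 88.2% to 78.1%), past the Benjamini-Hochberg threshold in both. This CpG was lower in merged (76.1% and 75.3%) than in unmerged P90 samples (80.1% and 85.1%). Averaged instead over all covered CpGs of intron 9 and exon 10, the difference was −0.523 points in segment 1 and −0.521 points in segment 4, and the calls were lost.

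*Lct* exon 12 (128293683–128293733, 3 CpGs) fell in segment 4. There the 8 P60 samples lay between 82.8% and 83.9% (median 83.5%), and the P90 samples had 77.3%, 76.8%, 78.1%, 77.8% and 79.8% (merged) and 81.7% and 79.4% (unmerged). All 7 were below every P60 sample, and the mean fell by 4.78 points (exact permutation p = 0.000155, adjusted p = 0.00171). The change was −5.53 points in merged and −2.9 points in unmerged samples. For segment 1 the P60 range was 76.2% to 82.1% (median 80%) and the P90 values were 77.5%, 78.7%, 75.7% and 80.4% (merged) and 75.7% and 74.9% (unmerged). The groups overlapped, and the difference of −2.61 points did not pass (exact permutation p = 0.03, adjusted p = 0.0599). All 3 CpGs were lower in both segments, as were 71.9% and 71.1% of all locus CpGs. All 3 passed the Benjamini-Hochberg threshold in segment 4, where 31.6% of all locus CpGs and 28.9% of other-target CpGs passed.

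Between *Ubxn4* and *Lct*, in the downstream flank of *Lct* (128284599–128284688, 3 CpGs), the change was −1.79 points in segment 1 (exact permutation p = 0.015, adjusted p = 0.0412) and −1.45 points in segment 4 (p = 0.00995, adjusted p = 0.0332). P60 samples ranged from 82.9% to 85.5% in segment 1 and 81.8% to 84.9% in segment 4. P90 samples ranged from 81.3% to 84.2% and 80% to 82.9%, so that the groups overlapped in both. The call was lost when any of 8 samples of segment 1 or 7 of segment 4 was left out (adjusted p up to 0.0706 and 0.057). With the mean of the other targets subtracted, the segment 4 difference was 0.293 points.

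*Mcm6* exon 13–intron 13 (128337771–128338385, 18 CpGs at 10 sites) was higher at P90, in its merged samples. One of its CpGs is in intron 12. In segment 1 the P60 samples had 31.5% to 48.9% (median 34.3%). The merged P90 samples had 50.1%, 46.3%, 44.9% and 52.2% and the unmerged ones 38.7% and 37%. Of the merged samples, those at 50.1% and 52.2% were above every P60 sample, and those at 46.3% and 44.9% lay inside the P60 range. The unmerged samples lay inside the P60 range as well. Over all P90 samples the level rose from 36.3% ± 5.64 to 44.9% ± 6.05 (SD, n = 8 and 6; 8.53 points, exact permutation p = 0.0226, adjusted p = 0.0498). The rise was 12 points in merged samples (exact permutation p = 0.00606), and the difference in unmerged samples was 1.52 points (exact permutation p = 0.689, where 0.0222 is the smallest possible p). The segment 1 call was lost on leaving out any of 11 of the 14 samples (adjusted p up to 0.0969), and held without P60 replicate 5 or P90 replicate 3 or 4.

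In segment 4 the P60 samples of this region had 32.2% to 48.9% (median 36.7%). The merged P90 samples had 62.6%, 60.9%, 53%, 59% and 49.5%, all above every P60 sample. The unmerged samples had 45.7% and 32.3%, inside the P60 range. The level rose from 38.2% ± 5.8 to 51.9% ± 10.6 (SD, n = 8 and 7; 13.7 points, exact permutation p = 0.0106, adjusted p = 0.0332). The rise was 18.8 points in merged samples (exact permutation p = 0.000777), against a difference of 0.795 points in unmerged ones (exact permutation p = 0.933). Within P90, merged exceeded unmerged samples by 10.5 points in segment 1 and 18 points in segment 4 (exact permutation p = 0.0667 and 0.0476, the smallest these numbers allow). The segment 4 call was lost on leaving out P60 replicate 3, 5, 6 or 8 or P90 replicate 1, 2, 3 or 6 (adjusted p up to 0.057). On lane 5, where each segment had 2 P60 and 2 P90 samples, the differences were −4.18 and 3.36 points. All 18 CpGs had higher means at P90 in both segments, by 1.15 to 16.1 points and 1.63 to 17.4 points. With Benjamini-Hochberg adjustment 0 passed in segment 1 and 9 in segment 4, where 31.6% of all locus CpGs and 28.9% of other-target CpGs passed. Among the 9 was 128338094 in intron 13, from 12.4% to 29.1% (merged 36.2%, unmerged 11.4%).

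*Mcm6* intron 3 (128353177–128353303, 5 CpGs) had the same layout. In segment 4 the P60 samples lay between 47.7% and 57.8% (median 49.9%), the merged P90 samples had 66.8%, 67.9%, 68.7%, 68.8% and 67.9%, and the unmerged ones 49.6% and 49%. Every merged sample was above every P60 sample, while the unmerged ones were among the lower P60 values. The level rose by 11.8 points (exact permutation p = 0.0103, adjusted p = 0.0332), or 17.1 points in merged samples, and differed by −1.59 points in unmerged samples. The call was lost without any of 7 of the 15 samples (adjusted p up to 0.0549). For segment 1 the P60 range was 46.6% to 63.6% and the P90 values were 59.2%, 61%, 61.2% and 68.9% (merged) and 51.3% and 49% (unmerged). The difference of 6.55 points did not pass (exact permutation p = 0.0806, adjusted p = 0.136), with 10.7 points in merged and −1.68 points in unmerged samples. The single CpG at 128353177, on the minus strand, went from 66% to 79.2% in segment 4 at a median depth of only 192 reads in P60 and 515 reads in P90 samples and passed the Benjamini-Hochberg threshold.

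Other regions that passed did so in segment 4. *Lct* intron 3–exon 4 rose by 5.01 points from 72.9% (exact permutation p = 0.0196, adjusted p = 0.0479), by 7.32 points in merged samples, and differed by −0.754 points in unmerged ones. Its call was lost without any of 12 of the 15 samples (adjusted p up to 0.0852). *Mcm6* intron 16 rose by 2.37 points from 84.7% (exact permutation p = 0.00715, adjusted p = 0.0332), with 3.19 points in merged and 0.34 points in unmerged samples, and its call was lost without any of 7 samples. In *Lct* intron 2, at 3 sites between 128314519 and 128314931, the difference of 8.85 points in segment 4 did not pass (exact permutation p = 0.0353, adjusted p = 0.0647). Merged samples there had 42.1% to 45.9%, above every P60 sample (22.9% to 40.1%), and unmerged ones 29% and 25%. Segment 1 of this region had a difference of 4.15 points (adjusted p = 0.27 by exact permutation), with 7.9 points in merged and −3.36 points in unmerged samples. *Lct* exon 1, *Lct* exon 9–intron 9 and *Mcm6* intron 6 did not pass in either segment, with differences of −0.926 to 2.61 points. In *Lct* exon 9–intron 9 the unmerged samples were 5.04 and 4.24 points lower than P60, and the merged samples 3.46 and 4.18 points higher.

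**Figure D1:**
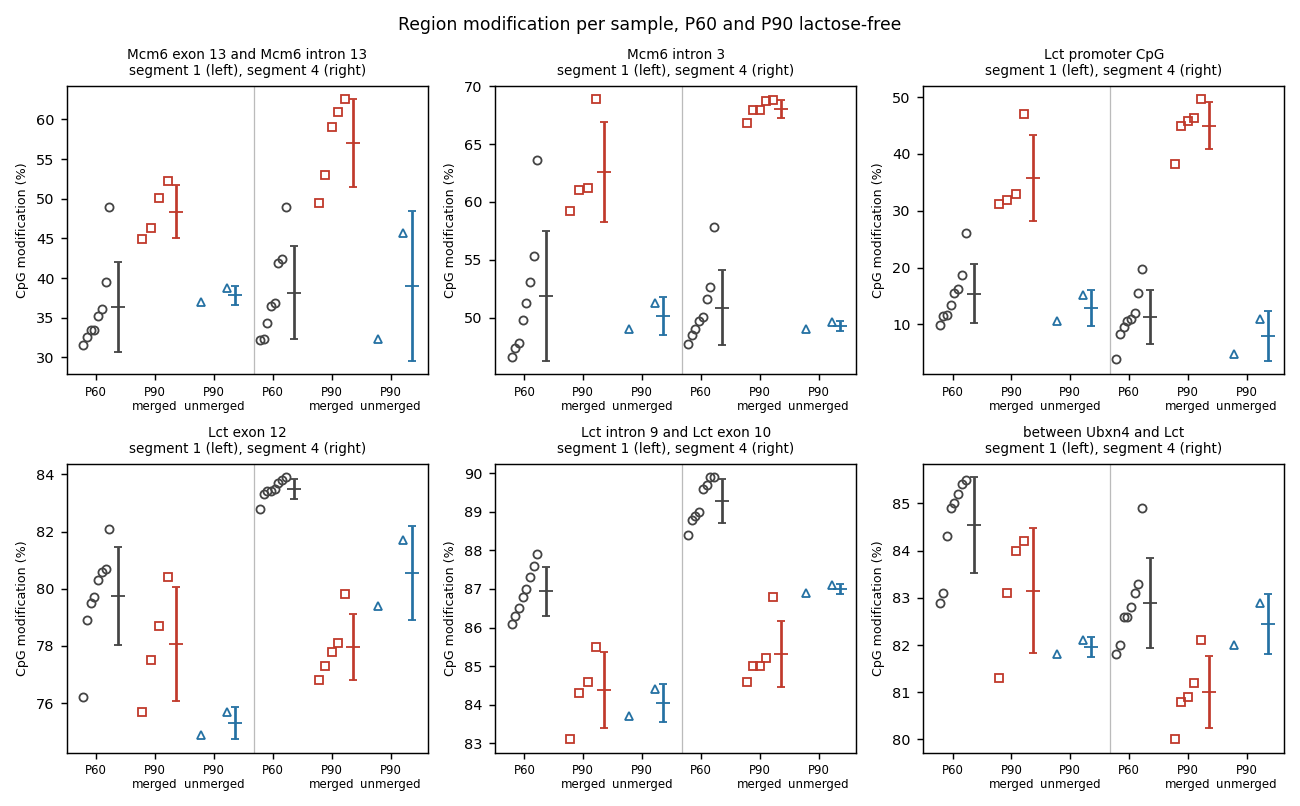
Percentage of CpG modification (y axis) in each sample of 6 regions, with P60 (circles), merged P90 (squares) and unmerged P90 samples (triangles) of segment 1 left and segment 4 right of the vertical line, and mean ± SD beside each group; y axes do not start at 0. In the 3 upper panels merged P90 samples of segment 4 lie above every P60 sample, and unmerged ones within the P60 range. In segment 1 some merged samples of the *Mcm6* panels also lie within the P60 range. In *Lct* intron 9–exon 10 every P90 sample lies below every P60 sample.

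The CpG at 128328323 (plus strand) and 128328324 (minus strand) lies 5 and 6 bp before the *Lct* start. It is the only one listed in the data for the RefSeq promoter window (128328269–128328568). It was chosen after its values were seen. In segment 4 its strand mean was 3.91% to 19.8% at P60 (median 10.7%), 45.8%, 45%, 49.7%, 46.3% and 38.2% in merged and 4.8% and 11% in unmerged P90 samples. In segment 1 it was 9.96% to 26.1% at P60 (median 14.5%), 31.8%, 31.2%, 33% and 47.1% in merged and 15.1% and 10.6% in unmerged P90 samples. Every merged sample was above every P60 sample, and no unmerged sample was. Over all P90 samples the means were 11.3% ± 4.74 and 34.4% ± 18.5 in segment 4 (SD, n = 8 and 7, exact permutation p = 0.00932), and 15.4% ± 5.18 and 28.1% ± 13.3 in segment 1 (n = 8 and 6, exact permutation p = 0.0286). In the quasi-binomial model both strands passed the Benjamini-Hochberg threshold in segment 4 and neither did in segment 1. The RefSeq window of the *Mcm6* promoter, with 26 CpG cytosines, stayed low throughout. It was at 0.604% and 0.606% in P60 and 0.749% and 0.741% in P90 samples of segments 1 and 4 (exact permutation p = 0.0163 and 0.034). These rises of 0.145 and 0.134 points stand beside rises of 0.0653 and 0.0875 points at locus cytosines outside CpG, described below. The part of incomplete conversion in the promoter rises was not tested.

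**Figure D2:**
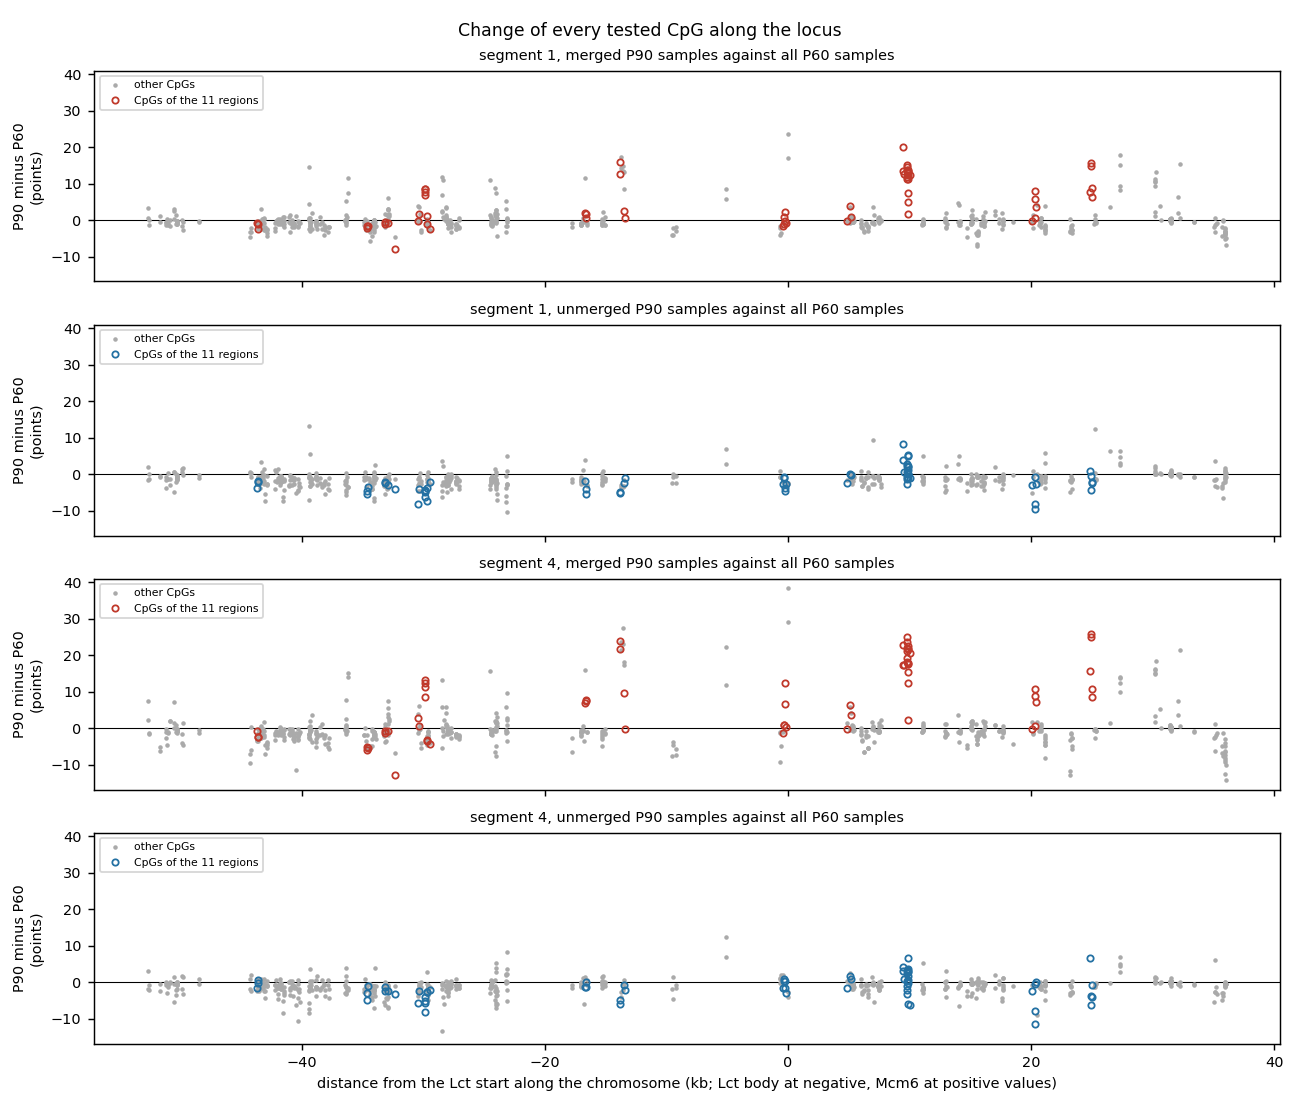
Difference of the group means (P90 minus P60, percentage points, y axis) at every tested CpG against its distance from the *Lct* start along the chromosome (kb, x axis), for merged and unmerged P90 samples of each segment; open circles are CpGs of the 11 regions and grey dots the others. Rises of over 10 points occur at several places with merged samples, and most CpGs lie below 0 with either kind of sample.

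CpGs that differ most along the gut at P60 had the largest median change over all P90 samples and over the merged ones. The difference between segments 9 and 3 at P60, neither of which was compared here, was over 10 points at 44 CpGs. These CpGs had a median change of 7.86 points in segment 1 and 12.7 points in segment 4, and 41 and 42 of the 44 were higher at P90. The medians were 11.6 and 17.4 points with merged samples and −1.23 and −1.37 points with unmerged samples. Across all CpGs tested, Pearson's r between the P60 gut difference and the change was 0.612 and 0.649 with merged samples, and 0.058 and 0.00141 with unmerged samples, over 665 and 668 CpGs. Spearman's rho was only 0.143 and 0.146 with merged samples and −0.152 and −0.114 with unmerged ones, so that the Pearson values rest on the CpGs with large differences. The points share libraries and many share probes, so that no p is given.

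**Figure D3:**
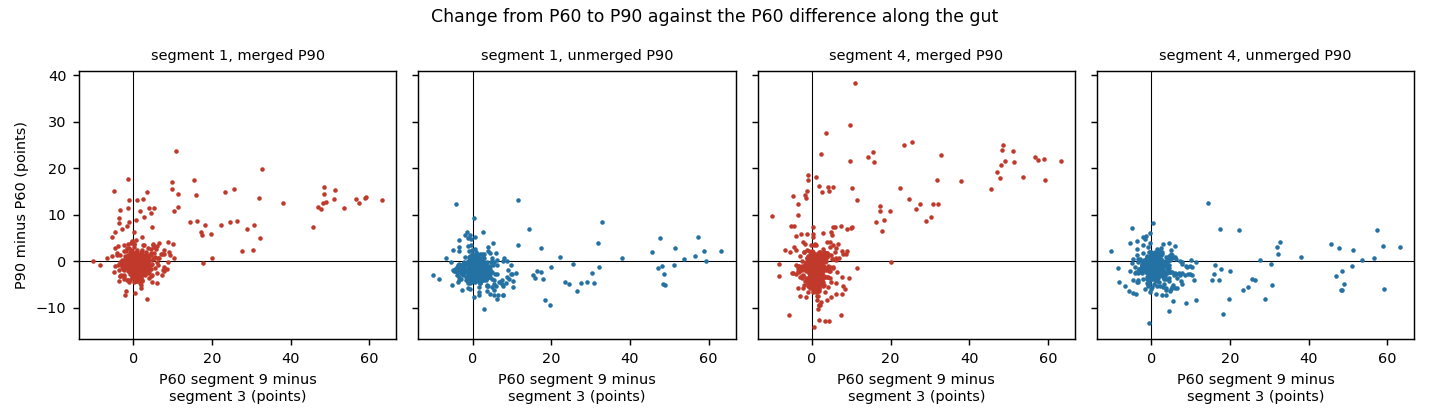
Change from P60 to P90 (percentage points, y axis) of each locus CpG against its difference between segments 9 and 3 at P60 (percentage points, x axis), in 4 panels for merged and unmerged P90 samples of segments 1 and 4. CpGs with a large gut difference lie above 0 with merged samples, with medians of 11.6 and 17.4 points, and around 0 with unmerged samples.

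A grouping by level gave the same order. Locus CpGs of 10% to 50% modification rose in segment 4 by 10.8 points (exact permutation p = 0.0115, adjusted p = 0.0184), by 15.8 points in merged samples, and differed by −1.71 points in unmerged samples. In segment 1 their difference was 6 points (exact permutation p = 0.0376, adjusted p = 0.0502), with 9.93 and −1.86 points. CpGs under 10% rose from 2.57% to 3.81% in segment 1 and from 2.23% to 4.18% in segment 4 (exact permutation p = 0.00233 and 0.000466, adjusted p = 0.00609 and 0.00186). Those rises were 1.67 and 2.54 points in merged samples, and the unmerged samples differed by 0.366 and 0.49 points. CpGs under 10% at the other targets rose as well, from 5.27% to 6.33% and from 4.3% to 6.14% (exact permutation p = 0.0266 and 0.00668, adjusted p = 0.0387 and 0.0134), with 1.7 and 2.64 points in merged and −0.226 and −0.176 points in unmerged samples. For CpGs of 50% to 90% the difference was −0.0726 and 0.316 points (exact permutation p = 0.935 and 0.582).

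The other autosomal targets changed too. Their mean CpG modification was 51.1% at P60 and 49.3% at P90 in segment 4, with all 7 P90 samples below every P60 sample (fell by 1.75 points, exact permutation p = 0.000311, adjusted p = 0.000932 over 6 means). In segment 1 it was 50.9% and 50.3% (exact permutation p = 0.0952, adjusted p = 0.143). Their CpGs over 90% changed by −2.99 and −4.24 points (exact permutation p = 0.00266 and 0.00186, adjusted p = 0.00609 and 0.00597). In merged samples these changes were −4.18 and −5.81 points, and in unmerged samples the differences were −0.602 and −0.309 points. Merged and unmerged files of the same age could be compared only within P90, where merging and lane coincide and each segment had 2 unmerged samples. Lane 5 held 2 unmerged samples of each age per segment, too few for a call. The part of merging and lane in the differences between ages was not tested, because no P60 file was merged.

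Cytosines outside CpG (CpH), where little modification is present in most tissues and incomplete conversion also counts as modification, were higher at P90. Their locus mean rose from 0.374% ± 0.0243 to 0.44% ± 0.0111 in segment 1 (n = 8 and 6) and from 0.378% ± 0.0148 to 0.465% ± 0.0211 in segment 4 (n = 8 and 7), with no overlap (exact permutation p = 0.000666 and 0.000155, adjusted p = 0.00133 and 0.000932). The differences of merged and unmerged samples from P60 were 0.0647 and 0.0665 points in segment 1 and 0.0938 and 0.0718 points in segment 4. CpHs of the other targets were also higher, by 0.0778 points in segment 1 and 0.164 points in segment 4 (exact permutation p = 0.000333 and 0.000155). In segment 4 their difference was 0.193 points in merged and 0.0919 points in unmerged samples. Correcting each CpG region by its sample's CpH level left the *Mcm6* exon 13–intron 13 differences at 8.53 and 13.7 points, with an adjusted p of 0.0505 by exact permutation in segment 1.

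**Figure D4:**
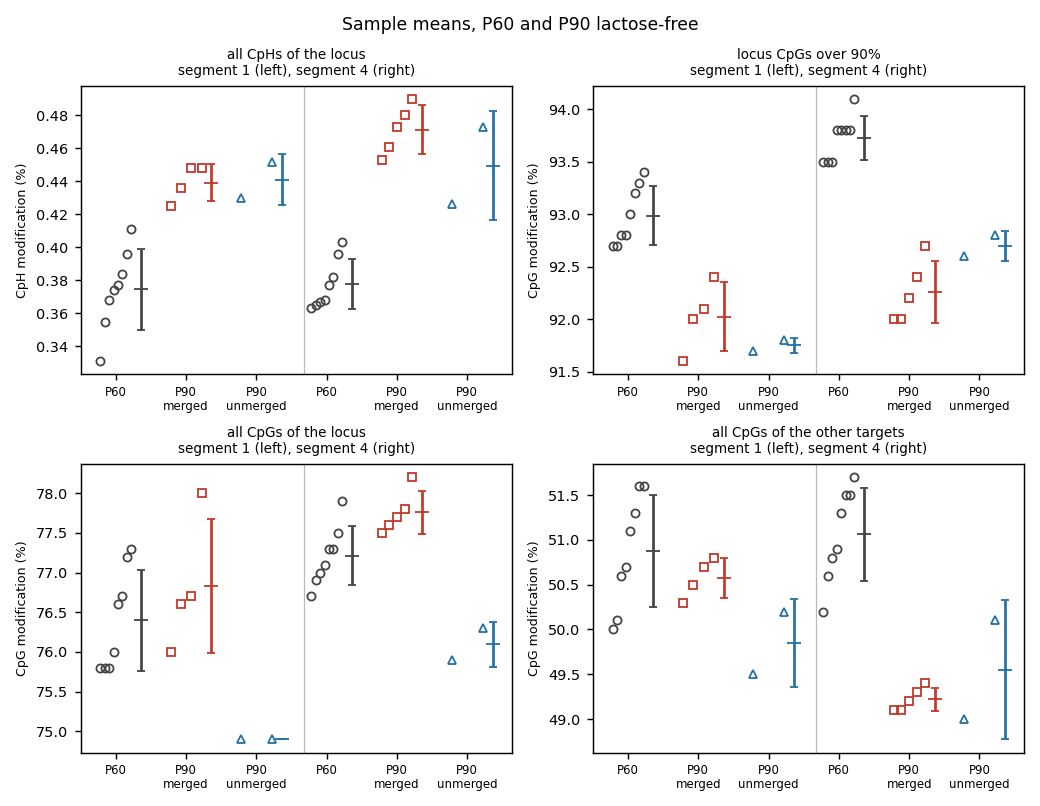
Mean modification (percent, y axis) per sample of the locus CpHs, the locus CpGs over 90%, all locus CpGs and all CpGs of the other targets, drawn with the same symbols and mean ± SD for P60, merged P90 and unmerged P90 samples of segment 1 (left) and segment 4 (right); y axes do not start at 0. CpH means are higher and CpGs over 90% lower in every P90 sample, while all locus CpGs overlap.

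The 2 segments were then compared with each other in their change from P60 to P90. In the quasi-binomial model of age and segment, 0 of 665 CpGs passed Bonferroni or Benjamini-Hochberg adjustment, and 76 had an unadjusted p under 0.05. With merged samples only, 6 of 665 CpGs passed Benjamini-Hochberg adjustment. These counts cover locus CpGs only, and no share over other cytosines is given to read them against. No region passed with all P90 samples or with merged ones only. *Lct* intron 3–exon 4 came closest, its change being 5.31 points larger in segment 4 (permutation test with 100000 resamples, p = 0.0402, adjusted p = 0.442). At *Mcm6* exon 13–intron 13 the change was 5.14 points larger in segment 4 (permutation p = 0.455, adjusted p = 0.673).

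P90 mice given milk with lactose, whose segment 1 and 4 files were all merged and from lane 3, give a level beside these. At *Mcm6* exon 13–intron 13 the means were 50.6% ± 3.24 (segment 1) and 56.9% ± 5.57 (segment 4; SD, 7 samples each), next to 48.4% ± 3.36 and 57% ± 5.54 in the merged lactose-free samples (n = 4 and 5). At *Lct* intron 9–exon 10 they had 84% ± 0.501 and 84.1% ± 1.06, next to 84.4% ± 1.01 and 85.3% ± 0.878.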

How the data were processed

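Enterocyte DNA of 29 samples was analysed in 4 groups taken from the labels, with lane and the merged mark taken from file names. The authors deposited, for each cytosine and strand, counts of modified and unmodified reads without normalization. Per the submitters' processing notes reads were processed with Trimmomatic 0.32 and Bismark (version not given in the sources used here) on GRCm38. The first row of 147 files was joined to another line and dropped.

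Here, CpGs and CpHs read over 30 times in 3 or more samples of each group were tested with a quasi-binomial F test (1 dispersion per cytosine), checked on simulated data, with Bonferroni adjustment at 0.01 over all cytosines tested. With 2 unmerged P90 samples the minimum was 2 samples. Means and 11 regions used CpGs covered in every compared sample and exact two-sided permutation tests. Differences between segments used 100000 resamples. Named CpGs were those past the threshold, filled up to 5 per segment by lowest p, and the lowest in regions. Exons follow GENCODE and promoter windows RefSeq. Members and lists were chosen with earlier results of these data known. The level classes, the promoter windows, the comparison of merged with unmerged P90 files and the counts adjusted by Benjamini-Hochberg within file kinds were added after the data were seen. Other settings were read minimums of 10 and 100, other corrections, limma with a pseudocount of 0.5, pooled reads, CpH correction, reference subtraction, replicate blocks, file kinds, lane 5 and leaving out single samples. P60 segment 1 replicates 1 and 4, one marked a repeat in its file name, had the most similar counts of 28 pairs (mean chi-square per CpG 2.95, next 3.57, above sampling noise), and were kept separate. Python 3.11.15, NumPy 2.4.6, SciPy 1.17.1, pandas 2.3.3, R 4.3.3 and limma 3.58.1 were used.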

Additional observations from a re-analysis of the deposited data

Results flagged for a closer look

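One sample stood apart from its group, by the gap to its nearest neighbour relative to the range, in 2 of 56 groups of values tested, where chance gives about 1 in 20. P60 segment 1 replicate 5 had 48.9% at *Mcm6* exon 13–intron 13, above the other 7 samples (31.5% to 39.5%), and without it the P90 difference was 10.3 points. P90 lactose-free segment 4 replicate 5, an unmerged file, had 50.1% over the CpGs of the other targets, above the other 6 samples (49% to 49.4%).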

How the results depend on the processing

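At a Bonferroni threshold of 0.01, 0% (segment 1) and 0.15% (segment 4) of locus CpGs differed, as also with read minimums of 10 and 100. They were 0.301% and 0.599% with adjustment over CpGs only (0.686% of other-target CpGs in segment 4), and 0% in segment 4 with limma, unmerged files or lane 5. Merged files gave 4.94% (other targets 4%) in segment 4, and unmerged files 0.23% of other-target CpGs in segment 1. Benjamini-Hochberg adjustment gave 5.86% and 31.6% of locus and 2.63% and 28.9% of other-target CpGs. It gave 10.7% and 12.6% with merged files and 1.61% of other-target CpGs with unmerged files in segment 1, and 0% and 0.116% with unmerged files in segment 4. Leaving out single samples gave 2.41% to 6.92% (segment 1) and 19.9% to 35.6% (segment 4) of locus CpGs, 1.04% to 4.69% of other-target CpGs in segment 1, and 0.15% to 0.299% of locus CpGs at the Bonferroni threshold in segment 4. Regions past the threshold were 1 to 3 and 2 to 10, the last without P90 segment 4 replicate 5. They were 6 and 11 with merged files, and 0 and 0 with unmerged files or lane 5. Lane 5 alone is too small for a call (smallest exact permutation p 0.333).

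Replicate numbers did not pair the samples: same-numbered samples deviated with a mean r of 0.119 (3 of 6 over 0.1) and 0.00788 (2 of 7 over 0.1). With the replicate block 0.151% and 0% of locus CpGs and 0.115% of other-target CpGs in segment 4 passed, regions were 0 and 0, and the CpH difference of segment 1 was 0.0586. *Mcm6* exon 13–intron 13 then differed by 8.58 and 12.8 points (adjusted p = 0.159 and 0.0859 by exact sign flips of the paired differences). Regions and means had only 6 and 7 such pairs, which limits how small p can be. That 0 regions passed therefore does not show that the regions lack a difference.

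In segment 1 that region lost its call with pooled reads (6.95 points), CpH correction (8.53), all CpGs of its features (7.55) and P60 replicates 1 and 4 as 1 sample (8.07). Single samples left out gave 7.07 to 10.3 points, and 11.9 to 16.9 in segment 4. Unmerged files gave 1.52 and 0.795 points, and lane 5 gave −4.18 and 3.36. The locus mean changed by 0.573 points in merged files of segment 4 and by −1.5 and −1.1 in unmerged files of segments 1 and 4. Lane 5 gave CpH differences of 0.0379 and 0.0827 and −1.64 points for the other targets of segment 4. In segment 4, *Lct* intron 3–exon 4 was at −0.754 (unmerged) and −0.547 (lane 5), *Mcm6* intron 3 at −1.59 and −0.0299, *Mcm6* intron 16 at −0.0527 (lane 5), and the region between *Ubxn4* and *Lct* at 0.293 with other targets subtracted. Over the other regions, 24 of 210 values under other settings and 41 of 290 with a sample left out lost a call, and 13 and 8 gained one. The 6 values just given changed sign where the main or the other setting had a call. Sign changes without a call in either setting were not counted. An example is *Lct* intron 2, at −3.36 and −3.42 points in unmerged files of segments 1 and 4. Causes were not tested. The unmerged and lane 5 comparisons rest on 2 P90 samples each.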
